A study of Homo sapiens with 4 samples.

Results

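The effect of guanosine alone on the mRNA of U87MG cells was read by setting 1 array of guanosine-treated cells against 1 array of control cells. U87MG is an established human glioblastoma line, bought from ATCC and grown in DMEM with 10% fetal bovine serum. The control culture received DMSO, and the other culture received 100 µM guanosine for 24 h. The 2 arrays, chosen by their treatment labels, are 2 of the 4 in the series, and the others are 1 array with 10 µM mycophenolic acid (MPA, an inhibitor of IMP dehydrogenase) and 1 array with both compounds at the same doses. Each condition was a single culture of a single line read once on an Affymetrix PrimeView array, so the spread among cultures is unknown, no difference was tested, and precision is limited by the few arrays. Differences are log2 of the guanosine signal minus log2 of the control signal, and signals are linear probe set intensities that serve to compare arrays, not genes. Of 18132 genes with a probe set of their own, 10663 reached a floor of 63.0 signal units on the brighter of the 2 arrays and were compared.

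Guanosine is a purine nucleoside that cells take up through nucleoside transporters. Purine nucleoside phosphorylase splits it into guanine and a sugar phosphate, and hypoxanthine-guanine phosphoribosyltransferase turns guanine into GMP, from which GDP and GTP follow. This salvage route reaches guanine nucleotides without IMP dehydrogenase, which makes the GMP precursor XMP from IMP and is known to be restrained by guanine nucleotides. The series is titled for IMP dehydrogenase-2 and nucleolar activity in glioblastoma. Guanosine alone is the arm in which the salvage substrate was given without the inhibitor of the enzyme.

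The labelled cell line was checked against its markers. All 15 mesenchymal glioma markers with a probe set, such as vimentin (VIM, 19783 on the control array and 20015 with guanosine), were above the floor on both arrays, and their summed signal was 109980 on the control array and 110030 with guanosine. CDKN2A (52.95 and 46.72) and MTAP (45.5 and 47.4), which lie in a region known to be deleted in U87 cells and were chosen after their values were seen, were below the floor on all 4 arrays. Of 11 leukocyte markers, 9 were below the floor on all arrays, PTPRC among them. Of 10 astrocyte markers 7 were above it on both arrays, among them the gap junction gene GJA1 (4177 and 4547) and, near the floor, GFAP (87.8 and 77.9). AQP4, ALDH1L1 and S100B were below it on all arrays. Of 10 endothelial and pericyte markers 5 were above it on both arrays, and PECAM1 and CDH5 were below it on all. Of 11 neuron and oligodendrocyte markers 7 were above it on the control array and 5 with guanosine, and of 8 epithelial markers 3 and 4. Array medians lay between 61.8 and 64.5, and over all probe sets the guanosine array correlated with the control array at r = 0.997. The 12 poly-A spike-in probe sets, which follow RNA added before labelling, were all higher with guanosine, by a median of 0.22 (0.01 to 0.46), and the 9 hybridisation spike-ins had a median of 0.02. The 28S ribosomal RNA probe sets were lower, at -0.96 and -0.76, the control array being the highest of the 4 for both (1453 and 1178). The 3 probe sets of 18S ribosomal RNA were all higher, by 0.15 to 0.17. The part of these control differences in the results was not tested.

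Differences between guanosine and control were small. The median over the 10663 genes was 0.00, the 5th and 95th percentiles were -0.24 and 0.28, and the SD was 0.16. By measured signal, 39 genes (0.366% of those compared) were higher by 1.5-fold or more, and 14 (0.131%) were lower by as much. Of these, 31 and 12 had both arrays at or above the floor, and the fold of the others, which include ZNF425 on the lower side, is only bounded by it. With each array centred on its median over the genes compared, the split was 32 higher and 19 lower. Only SCLT1, a centriolar appendage gene, passed 2-fold by measured signal (0.00938%), and it was under the floor with guanosine, which makes it at least 1.46-fold lower, while its other probe set differed by -0.12. The highest difference, 0.99, was that of HS3ST2, a heparan sulfate sulfotransferase, which was below the floor on the control array and so was at least 1.55-fold higher. Just inside the 1.5-fold threshold were RIMKLB at 0.59 and H2AC6 at -0.59, and just outside it ANKZF1 at 0.58 and RTKN2 at -0.58.

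**Figure D1:**
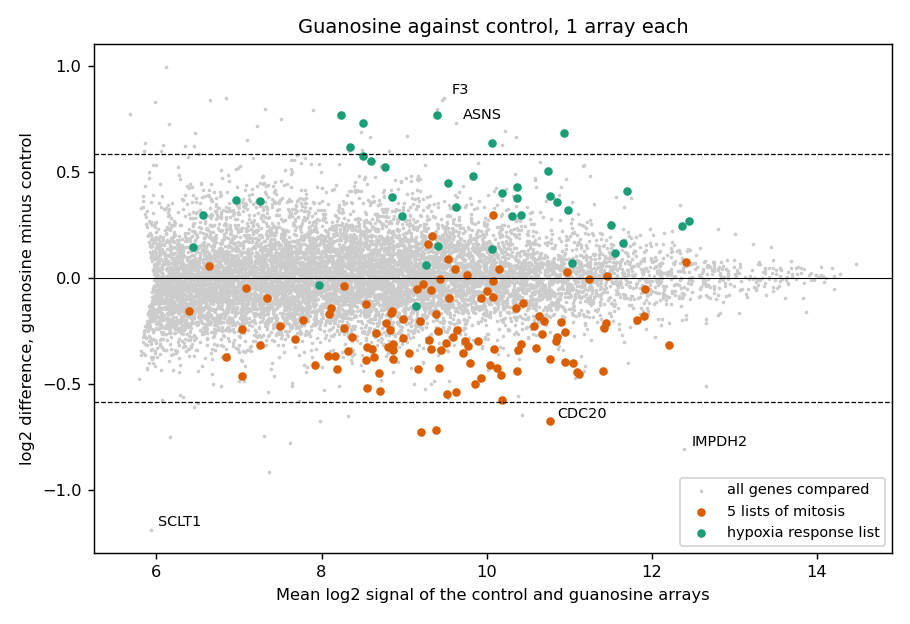
Log2 difference of guanosine minus control (vertical axis) against the mean log2 signal of the 2 arrays (horizontal axis) for the 10663 genes compared, 1 point a gene. Dashed lines mark 1.5-fold. The hypoxia response list (green) lies mostly above 0 with 37 of 39 genes higher, the 5 lists of mitosis (orange) mostly below 0 with 104 of 115 lower, and IMPDH2 lies apart from genes of similar signal.

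The gene of the enzyme that guanosine bypasses was among the lowest. IMPDH2, the main IMP dehydrogenase of proliferating cells, had a signal of 7120 with DMSO, 9168 under MPA, 4067 under guanosine and 4228 under both compounds. The arrays of both guanosine cultures were thus lower than both arrays without guanosine, and the difference of guanosine from control was -0.81. All 6 IMPDH2 probe sets were lower, by -0.99 to -0.81. With both compounds against MPA, which shares no array with guanosine against control, the IMPDH2 difference was -1.12.

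The rest of guanine nucleotide synthesis and salvage differed less. Of the 7 genes of that list that were compared, 2 were higher and 5 lower, with a median of -0.05, beside 49.5% of all genes higher and 50.2% lower. PNP, which encodes purine nucleoside phosphorylase, read 710.4 with DMSO, 513.8 under MPA, 579.2 under guanosine and 621.0 under both, a difference of -0.29. GMPS, the GMP synthase that follows IMP dehydrogenase, differed by -0.15. HPRT1, the salvage phosphoribosyltransferase, differed by 0.00 (2541 to 2545), and IMPDH1, the other IMP dehydrogenase, by 0.02 (1130 to 1148). The GMP kinase gene GUK1 differed by -0.01 and the deoxyguanosine kinase gene DGUOK by -0.05, and GMPR and GDA were below the floor on both arrays.

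Neighbouring purine and pyrimidine pathways had medians near 0. The 8 genes of de novo purine synthesis ranged from PAICS at -0.12 to GART at 0.04, with 5 lower and a median of -0.05. Among 15 nucleoside transporter and nucleotidase genes, 7 were higher and 8 lower with a median of -0.02, which turned to 0.16 with a floor at the 75th percentile and to 0.02 over genes whose probe sets all differed in 1 direction. The equilibrative nucleoside transporter gene SLC29A1 differed by -0.16 and SLC29A2 by -0.10, the ectonucleotidase gene NT5E by 0.16 and ENTPD7 by 0.30. In the pyrimidine and deoxynucleotide list, 12 of 20 genes were lower with a median of -0.04. Its lowest members were the S-phase enzymes RRM2 (2566 to 1987, -0.37), TK1 (-0.27) and TYMS (-0.21).

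Of the 39 genes at least 1.5-fold higher by measured signal, 10 (25.6%) stood on any of the 51 gene lists examined, 6 (15.4%) on the hypoxia list and 0 on the lists of mitosis. Of all genes compared, 9.77% stood on any list, 0.366% on the hypoxia list and 1.08% on the lists of mitosis. The lists were chosen with earlier results of these data known, so these shares are a description only. Other probe sets above the floor were present for 17 of the 39 and lay in the same direction for 14, beside 2300 of 3170 for all higher genes. F3, which encodes tissue factor, the starter of blood coagulation, read 534.1 with DMSO, 196.6 under MPA, 961.8 under guanosine and 934.7 under both, so that it was 1.80-fold higher with guanosine alone. Its 2 other probe sets were below the floor on the control array (38.2 and 60.4) and read 72.9 and 179.7 with guanosine. With both compounds against MPA its difference was 2.25, the MPA array being the lowest of the 4. HILPDA, a lipid droplet protein induced in hypoxia that was not on the hypoxia list, read 527.5, 483.5, 944.0 and 895.5 in the same order of arrays (0.84; other probe set 0.58), and both of its probe sets are of the kind that can bind several genes. INSYN2A, an inhibitory synapse factor, read 181.8, 187.8, 314.5 and 313.5 (0.79), and BAG1, a co-chaperone of HSP70, read 116.7, 93.6, 191.5 and 204.2 (0.71). In these 4 genes both arrays with guanosine were above both arrays without it.

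In many of the genes at least 1.5-fold higher the MPA array was above the control too, and 3 of the 15 highest are given here. NUPR1, a stress-induced chromatin protein, read 511.9 with DMSO, 994.7 under MPA, 888.5 under guanosine and 932.6 under both (0.80). PRKAB2, a regulatory subunit of AMP-activated protein kinase, read 279.6, 375.5, 450.9 and 451.1 (0.69), and the zinc finger gene ZNF404 read 120.9, 183.6, 210.1 and 216.6 (0.80). For NUPR1 only the control array stood low, and the difference of both compounds from MPA was -0.09. CFAP96 (0.85), FAM117B (0.84) and BRWD1 (0.75) were also among the 15 highest. CFAP96 read 85.2 with DMSO, 76.2 under MPA and 153.3 under guanosine, FAM117B 74.9, 32.0 and 133.8, and BRWD1 140.8, 132.6 and 236.4, so that MPA was below the control in each. The other BRWD1 probe set differed by 0.19.

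**Figure D2:**
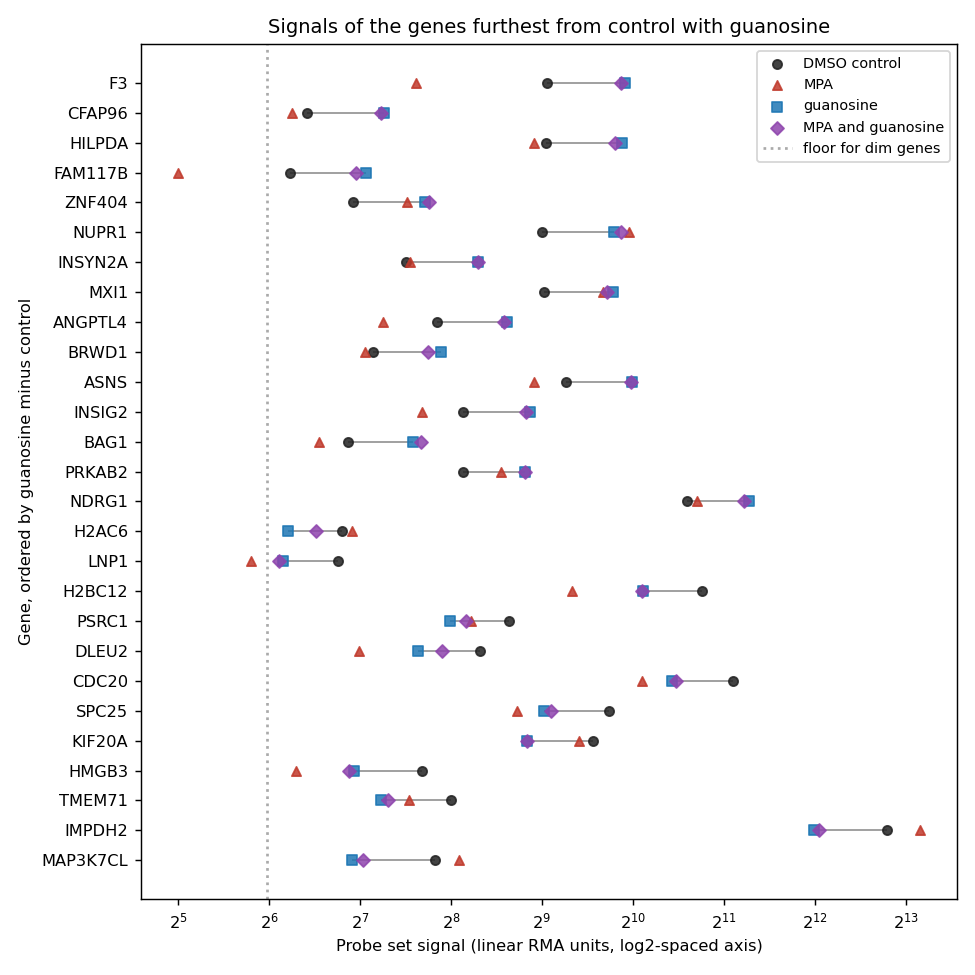
Probe set signals (horizontal axis, linear RMA units on a log2-spaced axis) of the 15 highest and 12 lowest genes that passed the rule for named genes, with 1 symbol for each of the 4 arrays and a grey line from control to guanosine. The dotted line is the floor for dim genes. The guanosine and the combined arrays lie close together for most genes, while the MPA array lies on either side of the control.

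Genes of the hypoxia response were higher on the guanosine array. Cells sense oxygen through prolyl hydroxylases that mark hypoxia-inducible factor for breakdown, and the factor otherwise drives genes of glucose uptake, angiogenesis, mitophagy and collagen modification. Of 39 genes of this list that were compared, 37 were higher and 2 lower with a median of 0.36. At least 1.2-fold higher were 28 members, and at least 1.2-fold lower were 0. The background shares at that size were 5.73% of all genes on the higher side and 4.01% on the lower. At least 1.5-fold higher were 6 members, beside 0.366% of all genes. All cultures were bulk samples, in which a difference in the number of cells of a state and a difference in RNA per cell cannot be told apart.

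The members read as follows on single arrays. NDRG1, a stress and differentiation gene used as a hypoxia marker, read 1549 with DMSO, 1672 under MPA, 2490 under guanosine and 2387 under both, a difference of 0.69, and its 5 probe sets differed by 0.32 to 0.69, 2 of them being below the floor on the control array. ANGPTL4, an inhibitor of lipoprotein lipase, read 230.2, 152.4, 391.5 and 384.4 (0.77). MXI1, a MAX partner that opposes MYC, read 519.1, 817.0, 882.7 and 843.8 (0.77; 3 other probe sets 0.65 to 0.75). In the first pair both arrays with guanosine were above both without it, whereas for MXI1 the MPA array lay near the guanosine arrays.

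Other members belong to known branches of the response. The glucose transporter gene SLC2A1 read 1436 on the control array and 2038 with guanosine (0.51), and the pyruvate dehydrogenase kinase gene PDK1 read 636.5 and 866.9 (0.45). EGLN1, a prolyl hydroxylase of hypoxia-inducible factor and itself a target of it, read 1135 and 1526 (0.43; 2 other probe sets 0.38 and 0.43). The histone demethylase gene KDM3A differed by 0.48, the mitophagy receptor genes BNIP3L by 0.41 and BNIP3 by 0.27, and the clock repressor gene BHLHE40 by 0.57. Smaller values were read for VEGFA, the vascular growth factor (4851 to 5754, 0.25), the collagen prolyl hydroxylase gene P4HA1 (0.14) and STC1 (0.07). The 2 lower members were PLOD1 at -0.03 and JMJD6 at -0.13, the latter turning to 0.037 with the median of its probe sets. CA9 and SLC2A3 had no probe set with a single symbol, and EGLN3 was below the floor.

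The enzymes of glycolysis, many of which are also hypoxia targets, had a median near 0. Of 16 genes, 10 were higher and 6 lower with a median of 0.01, which turned to -0.01 with each array centred. HK2, the hexokinase of glycolytic tumour cells, read 940.8 with DMSO, 1396 under MPA, 1518 under guanosine and 1319 under both (0.69). Its other probe set, near the floor at 74.0 with DMSO and 70.7 under guanosine, differed by -0.07. PGK1 differed by 0.21 and ENO2 by 0.25, while LDHA and GAPDH each differed by 0.01 and PFKM by -0.15.

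The start regions of the hypoxia genes were searched for the core of the hypoxia response element, ACGTG or GCGTG on either strand, in windows of 250 bases before to 50 after the RefSeq start (GRCh38.p14). Either form was present in 27 of 32 hypoxia genes with a window (84.4%), in 63.7% of the windows of genes compared and in 48.4% of all windows of the table. The A form, ACGTG, was present in 17 of the 32 (53.1%), in 27.3% of the windows of genes compared and in 21.6% of all windows. Members with the A form were 17 of 17 higher with a median of 0.34, and those without it were 14 of 15 higher with a median of 0.38. Over all genes compared the median was 0.01 in 2414 genes that held the A form and 0.00 in 6421 that did not. The 250 upstream bases of 2 members at least 1.5-fold higher are shown to let the element be seen, 5′ to 3′ on the gene's strand, with each match of either form in capitals. They are ANKRD37 (chr4:185396591-185396840, plus strand), an ankyrin repeat gene that read 263.0 with DMSO, 223.9 under MPA, 403.7 under guanosine and 386.3 under both, and INSIG2 (chr2:118088221-118088470, plus strand), which holds the sterol sensor in the endoplasmic reticulum and read 281.1, 204.6, 466.5 and 453.9. The upstream bases of MXI1, the highest member, held 0 matches and those of ANGPTL4 held 1. A match is a description of the letters and not evidence of binding.
ANKRD37: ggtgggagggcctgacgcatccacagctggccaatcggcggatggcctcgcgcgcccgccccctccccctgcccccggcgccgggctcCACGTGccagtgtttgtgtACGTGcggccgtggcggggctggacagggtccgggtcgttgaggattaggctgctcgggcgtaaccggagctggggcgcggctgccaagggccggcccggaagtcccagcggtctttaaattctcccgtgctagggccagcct
INSIG2: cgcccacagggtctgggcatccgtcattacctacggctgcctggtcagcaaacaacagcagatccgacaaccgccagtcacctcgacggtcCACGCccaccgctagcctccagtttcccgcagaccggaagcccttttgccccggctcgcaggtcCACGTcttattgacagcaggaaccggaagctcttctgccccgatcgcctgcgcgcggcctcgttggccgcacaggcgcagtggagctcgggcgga

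Part of the amino acid response was higher as well. ATF4 is a transcription factor whose translation rises when amino acid shortage or other stresses activate kinases of eIF2, and it drives genes of amino acid synthesis and import. Of 31 compared genes of this list, 21 were higher and 9 lower with a median of 0.09; at least 1.2-fold higher were 9 (beside 5.73% of all genes) and at least 1.2-fold lower 0 (beside 4.01%). The highest member was NUPR1, at 0.80 as given above, for which both compounds and MPA read nearly the same. ASNS, asparagine synthetase, read 615.0 with DMSO, 482.5 under MPA, 1021 under guanosine and 1011 under both, which is 1.66-fold higher with guanosine alone, and its 4 probe sets differed by 0.73 to 0.83. ATF4 itself read 3026, 2270, 3931 and 4006 (0.38). PSAT1 and PSPH, enzymes of serine synthesis, differed by 0.47 and 0.60. PSPH was below the floor on the control array and so was at least 1.30-fold higher, while its other probe set differed by 0.14. For ASNS and ATF4 both arrays with guanosine were above both without it, and MPA was the lowest.

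Other targets of the same stress pathway were not higher. DDIT3, a pro-apoptotic partner of this response, read 233.7 with DMSO, 569.7 under MPA, 196.3 under guanosine and 216.9 under both (-0.25). The pseudokinase gene TRIB3 differed by -0.10, the amino acid transporter genes SLC3A2 by -0.07 and SLC7A5 by -0.04, the stress sensor gene SESN2 by -0.03 and CHAC1 by 0.00. DDIT4 (0.53), STC2 (0.52) and VLDLR (0.55) were also among the high members, and STC2 and VLDLR also stand on the hypoxia list. Of 19 cytosolic aminoacyl-tRNA synthetase genes 11 were higher with a median of 0.03, MARS1 at 0.37 being the highest, and the 20 genes of the endoplasmic reticulum's unfolded protein response had a median of 0.00.

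The upstream bases of ASNS (chr7:97872409-97872658, minus strand), all of whose probe sets were higher, hold the amino acid response element searched here, TGATGNAA on either strand, given in capitals. The letters occurred in 5 of 26 genes of the list with a window (19.2%), in 1.87% of the windows of genes compared and in 3.67% of all windows. Over the 165 compared genes that held them the median was 0.02.
ASNS: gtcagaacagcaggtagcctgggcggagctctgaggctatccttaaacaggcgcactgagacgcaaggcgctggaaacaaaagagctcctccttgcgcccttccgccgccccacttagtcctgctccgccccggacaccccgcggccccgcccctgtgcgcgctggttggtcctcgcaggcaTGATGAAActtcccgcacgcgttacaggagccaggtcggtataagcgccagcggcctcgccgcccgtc

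**Figure D3:**
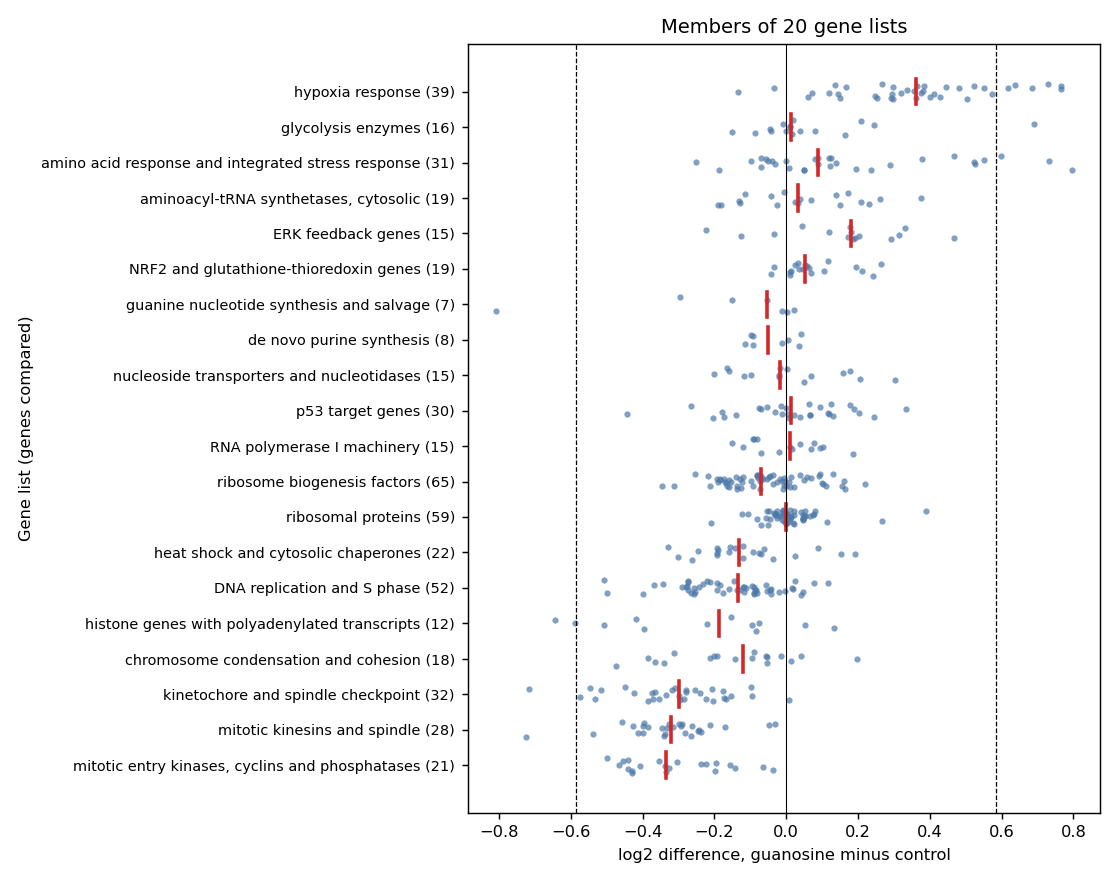
Log2 differences of guanosine minus control (horizontal axis) for the members of 20 gene lists, 1 point a gene, with the number of genes compared in brackets, a red bar at each list's median and dashed lines at 1.5-fold. The hypoxia list has the highest median (0.36) and the lists of mitotic entry (-0.33), kinesins (-0.32) and kinetochores (-0.30) the lowest.

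Genes of mitosis were lower on the guanosine array. Many of these genes peak in G2 and M. Cyclin B and its kinase, the kinetochores that hold chromosomes to the spindle, spindle motors and the anaphase-promoting complex then act in turn. Of 115 compared genes in the 5 lists of mitosis, 104 were lower and 11 higher with a median of -0.28. At least 1.2-fold lower were 61 of the 115, where 4.01% of all genes compared were. At least 1.5-fold lower were 3, namely KIF20A, SPC25 and CDC20, beside 0.131% of all genes. MPA against control, which shares the control array, had medians of -0.71 to -0.27 for the same lists. The control array was the highest of the 4 in 93 of the 115 genes (80.9%), beside 21.5% of all genes compared. Both arrays with guanosine lay below both without it in 13 (11.3%), beside 21.2% of all genes, and above both in 10 (8.7%), beside 25.6%.

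Mitotic entry was lower throughout its list, with 21 of 21 genes lower and a median of -0.33. CCNB1, which encodes cyclin B, read 3163 with DMSO, 1431 under MPA, 2330 under guanosine and 2346 under both (-0.44). AURKA, a kinase of the spindle poles, read 2605, 1822, 1902 and 1853 (-0.45), and its activator TPX2 differed by -0.50, PLK1 by -0.46 and FOXM1, the transcription factor of this phase, by -0.34. CDK1 differed by -0.24. The smallest differences were those of WEE1, which restrains CDK1, at -0.06 and PLK4, the kinase of centriole duplication, at -0.04. In CCNB1 and AURKA the control array was the highest of the 4.

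Kinetochore and checkpoint genes had 31 of 32 members lower with a median of -0.30, and kinesin and spindle genes had 28 of 28 lower with a median of -0.32. SPC25, a subunit of the NDC80 complex, read 855.4 with DMSO, 422.9 under MPA, 520.9 under guanosine and 547.2 under both (-0.72). CENPA, the histone variant of centromeres, read 1425, 902.6, 957.3 and 939.9 (-0.57; 4 probe sets -0.57 to -0.54). KIF20A, a kinesin of cytokinesis, read 757.1, 677.4, 458.1 and 457.5 (-0.72). In KIF20A both arrays with guanosine lay below both without it, whereas SPC25 was lowest with MPA. NUSAP1 differed by -0.54, CENPE by -0.55, CDCA8 by -0.53 and KIF2C by -0.46, and BUB3, a checkpoint protein, by 0.01.

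Later and structural steps of mitosis were less uniform. CDC20, the activator of the anaphase-promoting complex, read 2201 with DMSO, 1098 under MPA, 1377 under guanosine and 1428 under both (-0.68; other probe set -0.68). Its list, mitotic exit, had 9 of 16 genes lower and a median of 0.00, and subunits of the complex such as CDC16 (0.30) were higher. UBE2S, a ubiquitin-conjugating enzyme of the complex, differed by -0.45. Chromosome condensation and cohesion had 15 of 18 genes lower and a median of -0.12, with the proliferation marker MKI67 at -0.47 (1149 to 827.0; 5 other probe sets -0.55 to 0.00), SMC4 at -0.21 and TOP2A at -0.20. PSRC1, a spindle protein outside the lists, read 399.0, 297.9, 254.3 and 286.6 (-0.65).

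Start regions of mitosis genes often hold a cell cycle homology region, searched here as TTTGAA, together with a CCAAT box, both on either strand. Both were found in 38 of 99 mitosis genes with a window (38.4%), in 4.32% of the windows of genes compared and in 6.08% of all windows. The 38 genes with both were all lower with a median of -0.31, and of the 61 without the pair 51 were lower with a median of -0.24. Outside the mitosis lists, 344 compared genes held both and 55.5% of these were lower with a median of -0.03, beside 49.3% of those without the pair. The upstream bases of KIF20A and NUSAP1 held CCAAT boxes but no TTTGAA on either strand, and other spellings of the region were not searched. Those of CDC20 (chr1:43358731-43358980, plus strand) and CENPA (chr2:26785806-26786055, plus strand) show the arrangement, with both motifs in capitals.
CDC20: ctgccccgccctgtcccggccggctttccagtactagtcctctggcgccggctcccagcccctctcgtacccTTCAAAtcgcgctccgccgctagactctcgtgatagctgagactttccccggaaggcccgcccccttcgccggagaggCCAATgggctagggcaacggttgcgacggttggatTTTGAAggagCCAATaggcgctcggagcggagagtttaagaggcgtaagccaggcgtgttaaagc
CENPA: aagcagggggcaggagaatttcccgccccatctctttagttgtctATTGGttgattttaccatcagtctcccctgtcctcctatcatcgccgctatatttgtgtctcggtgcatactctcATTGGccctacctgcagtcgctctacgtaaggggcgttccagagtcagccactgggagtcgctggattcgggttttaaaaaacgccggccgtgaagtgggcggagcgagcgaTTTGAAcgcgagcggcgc

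DNA replication and histone genes were mostly lower too. Of 52 replication genes 45 were lower with a median of -0.13, and 12 were at least 1.2-fold lower, where 4.01% of all genes were. MPA against control had a median of -0.92 for this list. With both compounds against MPA, 47 of the 52 were higher with a median of 0.75, beside 53.4% of all genes. CLSPN, a replication checkpoint mediator, read 130.8 with DMSO, 66.5 under MPA, 92.0 under guanosine and 96.6 under both (-0.51), the primase gene PRIM1 differed by -0.40 and the helicase subunit gene MCM7 by -0.28. Of 12 histone genes 10 were lower with a median of -0.19, which was -0.40 over genes whose probe sets all differed in 1 direction, and H2BC12 and H2AC6 were at least 1.5-fold lower. The control array was the highest of the 4 in 8 of the 12 histone genes (66.7%), beside 21.5% of all genes compared. H2BC12 read 1729, 641.8, 1105 and 1098 (-0.65), H4C3 7730, 3956, 5436 and 5592 (-0.51) and H2AX 2695, 2061, 2018 and 2103 (-0.42), and the probes of H2BC12 and H4C3 may also read near-identical histone copies. Of 11 genes of G1 cyclins, kinases and inhibitors 9 were lower with a median of -0.15, CDKN1A, the p21 inhibitor, at -0.26 (1649 to 1373) among them and CDKN1B, the p27 inhibitor, at 0.15.

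Of the 12 genes at least 1.5-fold lower with both arrays above the floor, 6 stood on any list and 3 on the lists of mitosis, beside 9.77% and 1.08% of all genes compared. These shares too are a description, since earlier results were known when the lists were chosen. Among the 14 lower by measured signal, other probe sets were lower in 5 of the 5 genes that had them, beside 1961 of 2872 for all lower genes. MAP3K7CL read 226.4 with DMSO, 271.8 under MPA, 120.0 under guanosine and 131.0 under both (-0.92), and its 2 other probe sets were also lower, but below the floor with guanosine (40.9 and 53.8). TMEM71, a transmembrane protein gene, read 256.6, 185.3, 149.7 and 158.8 (-0.78). In both genes each array with guanosine was below each array without it. HMGB3, a chromatin protein gene, read 205.0, 78.4, 122.4 and 117.6 (-0.74; other probe set -0.28), and DLEU2, a long non-coding RNA read by a probe set that can bind several genes, read 318.3, 127.1, 199.6 and 238.6 (-0.67). For HMGB3 and DLEU2 the MPA array was the lowest.

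Nucleolar and p53 genes had medians near 0 with guanosine alone. Against the same control array, MPA gave medians of 1.22 for p53 targets and -0.41 for the RNA polymerase I list. The median of the RNA polymerase I list was 0.01 and 8 of its 15 genes were higher, with signs that turned under 4 alternatives (lowest -0.07). UBTF, the upstream binding factor of ribosomal genes, differed by -0.15 (227.2 to 204.4), POLR1A, the largest subunit, by 0.09 and RRN3, the initiation factor, by 0.10. Ribosome biogenesis factors had 46 of 65 genes lower and a median of -0.07, from RRP1 at -0.35 to UTP3 at 0.22. Ribosomal protein genes had 30 of 59 higher and a median of 0.00. Among 30 p53 target genes 17 were higher and 13 lower with a median of 0.01 that turned to -0.01 with each array centred, PLK2 being the lowest (262.8 to 193.3, -0.44) and TP53INP1 the highest (263.4 to 331.9, 0.33; other probe set -0.22, below the floor with guanosine). MYC differed by 0.06 (791 to 827).

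Guanosine was also given on top of MPA, and both compounds against MPA share no array with guanosine against control. Across the 10663 genes the differences of the 2 comparisons correlated at r = 0.19 and rho = 0.20, a description over genes that are not independent. Of the 39 genes at least 1.5-fold higher with guanosine alone, 33 were higher and 15 at least 1.5-fold higher in the presence of MPA, with a median of 0.51, whereas of all 5282 higher genes 3231 were higher there with a median of 0.09. Of the 14 lower by measured signal, 8 were lower in the presence of MPA, 3 of them at least 1.5-fold; the median was -0.10, beside -0.04 for all lower genes.

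The hypoxia and mitosis genes parted in this second setting. Of the 39 hypoxia genes, 32 were higher with both compounds than with MPA, with a median of 0.47, where 53.4% of all genes were higher and their median was 0.03. Of the 115 mitosis genes, 99 were higher with both compounds than with MPA, with a median of 0.34. This was the opposite of their direction without MPA, but the reference is the MPA array here and the control array there. In 84 of the 115 (73%) the guanosine array lay between the control and the MPA array, beside 21% of all genes compared. KIF20A was lower in both settings (-0.72 without MPA and -0.57 with it), as were IMPDH2 and MAP3K7CL (-0.92 and -1.05). The difference between the 2 settings was not tested.

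**Figure D4:**
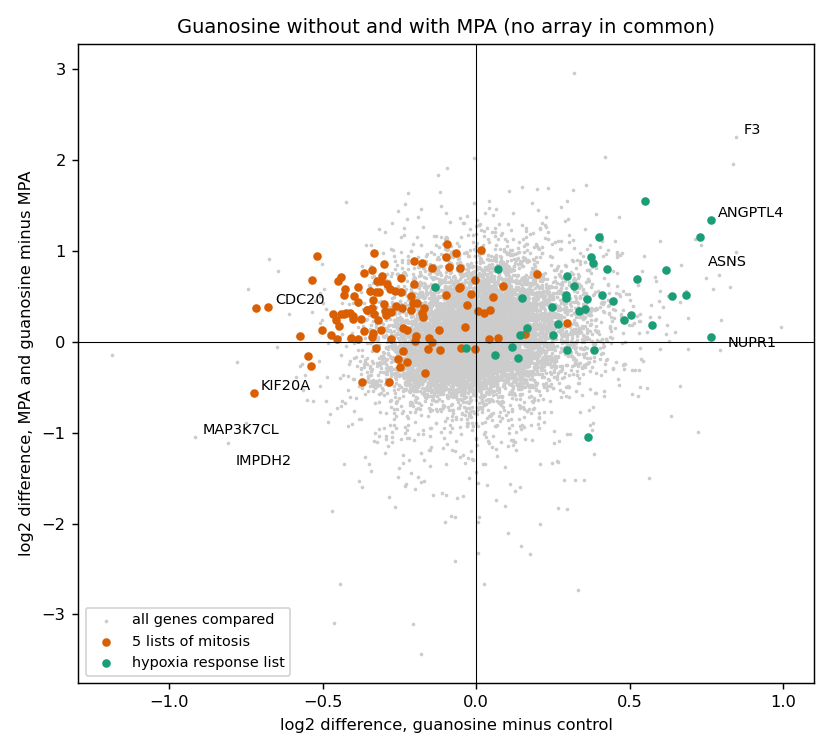
Log2 difference of guanosine minus control (horizontal axis) against that of MPA and guanosine minus MPA (vertical axis), 1 point for each of the 10663 genes compared. Hypoxia genes (green) lie mostly at the upper right with medians of 0.36 and 0.47, mitosis genes (orange) mostly at the upper left with medians of -0.28 and 0.34, and IMPDH2, MAP3K7CL and KIF20A at the lower left.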

How the data were processed

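Total RNA, extracted with ISOGEN, was hybridised as biotin-labelled target. The deposited values are linear probe set intensity values that the authors made by RMA, per the labels; their software and its settings: not given in the sources used here. RMA equalises the arrays' distributions, so a change in total mRNA would not show.

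From these, log2 values were taken. The platform table gave 1 symbol to 44994 of 49395 probe sets and several to 1832, and did not list 2569; 102 were controls. A gene took its brightest probe set over the 4 arrays, one ending in _x_at only where it had no other (601 genes). The floor was the median of all non-control values, 5.98 on the log2 scale; a gene under it on 1 array gets a fold against the floor. With 1 array a condition, no test was run; genes were counted at 1.2-, 1.5- and 2-fold. The members and the 51 gene lists were chosen with earlier results of these data known. Named were the 15 highest and up to 15 lowest genes past 1.5-fold with both arrays at or above the floor. The median of their other probe sets above the floor, where there were any, had to have the same sign, and 12 low genes passed. Also named were up to 5 members at either end of each list and some fixed genes. Others named for their function or place near the threshold were chosen after their values were seen. Of the lists, 2 had a median of at least 0.1 above 0 and 8 at least 0.1 below; the other 41 lay between -0.10 and 0.09. Promoter windows came from RefSeq (GRCh38.p14), with 27305 windows in all and 8835 for the genes compared. Counting was tested on simulated data. Alternatives were the floor, the choice of probe set, cyclic loess (R 4.3.3, limma 3.58.1) and median centring; Python 3.11.15, numpy 2.4.6 and pandas 2.3.3 did the rest.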

Additional observations from a re-analysis of the deposited data

Results flagged for a closer look

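The results below differed in opposite directions between guanosine against control and both compounds against MPA. With 1 array each, the difference was not tested. The reference is the control array in the first comparison and the MPA array in the second. In each single gene named below, the guanosine array lay between the control and the MPA array. The list of kinetochore and checkpoint genes had a median of -0.30 without MPA and 0.34 with it, and the list of mitotic kinesins and spindle genes -0.32 and 0.38. DLEU2 differed by -0.67 without MPA and by 0.91 with it. The histone gene H2BC12 differed by -0.65 and 0.77 and the chromatin protein gene HMGB3 by -0.74 and 0.59. The histone demethylase gene KDM7A differed by 0.64 and -0.82 and the ubiquitin ligase adaptor gene KLHL24 by 0.72 and -0.996; both were below the floor on the control array, so that they were at least 1.15-fold and 1.45-fold higher with guanosine alone.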

How the results depend on the processing

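No paired analysis was possible because each condition has 1 array. The 27 genes at the ends kept their sign under each alternative that gave them a value, and between 18 and 27 of them stayed past 1.5-fold (18 of 18 with a floor at the 75th percentile). That floor left 21 genes at least 1.5-fold higher and 8 lower and raised the amino acid list's median to 0.20. IMPDH2 differed by -0.910 with the median of its probe sets. Over genes whose probe sets all differed in 1 direction, the histone list's median was -0.40 and 19 lists had a median of at least 0.1 in size, beside 10 as reported. All 10 of those lists kept their sign under the 7 alternatives. The hypoxia list's median ranged from 0.30 to 0.38 and that of the 5 mitosis lists together from -0.31 to -0.25. JMJD6 turned to 0.037 with the median of its probe sets. The nucleolar GTPase list turned from -0.06 to 0.06 with the same choice. Causes were not tested.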

Other observations

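Of all genes compared, 49.5% were higher and 50.2% lower, the shares to set beside the counts of this section. Genes known to be induced by ERK signalling were higher on the guanosine array in 12 of 15 cases, with a median of 0.18. They include phosphatases and Sprouty proteins that damp this signalling and ETV transcription factors. DUSP6, a phosphatase of ERK, read 1696 with DMSO, 931.8 under MPA, 2343 under guanosine and 2410 under both (0.47; 3 other probe sets 0.38 to 0.46), and DUSP4 differed by 0.33, SPRY1 by 0.32 and DUSP5 by 0.29. Of 20 immediate early genes 13 were lower with a median of -0.08. Heat shock and cytosolic chaperone genes were lower in 18 of 22 cases with a median of -0.13, HSPB1 reading 1319 and 1051 (-0.33) and DNAJA1 3604 and 2926 (-0.30; 4 other probe sets -0.40 to -0.24).

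Of 19 genes of the NRF2 and thiol redox list 17 were higher, with a median of 0.05 and none at least 1.2-fold, the share of all genes at that size being 5.73%. Genes of cholesterol synthesis and uptake were lower in 13 of 17 cases with a median of -0.10, and those of lysosome and autophagy higher in 16 of 23 with a median of 0.06, the cholesterol exporter gene NPC1 being the highest at 0.42. Mitochondrial ribosomal protein genes were lower in 44 of 65 cases with a median of -0.04, and the 49 subunit genes of oxidative phosphorylation had a median of 0.01, which turned to -0.01 with each array centred.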
